A study of Mus musculus with 30 samples.

Results

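The comparison of 5-fluorouracil (5-FU) alone with vehicle covered 10 of the 30 libraries of the study, 5 from tumours of mice given 5-FU and 5 from tumours of mice given vehicle, chosen by their sample titles. Transcript levels were read by bulk RNA sequencing of mammary tumours from FVB/N-Tg(MMTV-PyVT)634Mul/J (MMTV-PyMT) mice, a strain in which the mouse mammary tumour virus promoter drives polyoma middle T antigen in the mammary epithelium and tumours arise spontaneously. All groups carried this transgene and bore the genotype label WT, and each library came from a separate mouse per the study's methods. The 5-FU mice received 40 mg/kg every 4 days by intraperitoneal injection in saline, and the labels give 72 hours of treatment for every group, while the study's text gives a shorter time. The makeup of the vehicle and the age of the mice are not given in the sources used here. The other groups used below are KCL-HO-1i, an inhibitor of heme oxygenase-1 given at 25 µmol/kg daily, KCL-HO-1i/5-FU, which combines both agents, and gemcitabine, another cytotoxic chemotherapy, which the labels give at 64 mg/kg every 7 days, where the study's text gives a lower dose. The libraries are numbered vehicle 1 to 5 and 5-FU 1 to 5 after the replicate numbers of the labels, and values are given as CPM, counts scaled to a common effective library size.

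5-FU is a fluorinated pyrimidine that cells convert into nucleotides. One of the products inhibits thymidylate synthase, which starves DNA synthesis of thymidine, and others are built into RNA and DNA, where they disturb ribosomal RNA processing and provoke base excision repair. Cells that sense the damage commonly stabilise p53, induce its targets, leave the cell cycle or die, and the enzyme dihydropyrimidine dehydrogenase removes most of a dose in the liver. In tumours the drug is also known to act on immune cells of the microenvironment.

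Total counts ran from 10874640 to 13482226 over the 10 libraries and the group means were 81609 counts apart (two-sided exact permutation p = 0.913, where the smallest possible p was 0.00794), and the share of counts in mitochondrial genes ran from 1.82 to 3.12% (two-sided exact permutation p = 0.714). A pair of libraries stood apart. The highest correlation of vehicle 3 with any other library was 0.944 and that of 5-FU 4 was 0.936, and 42 and 59 genes respectively were more than 4-fold above every other library, against 0 to 6 in the other 8. The median correlation of log2 CPM was 0.973 within vehicle, 0.956 within 5-FU and 0.968 between the groups, so libraries of different groups were about as alike as libraries of 1 group. Mammary epithelial markers were present in all 10 libraries, with Epcam, an epithelial adhesion molecule, at 888 to 1497 CPM and the luminal keratin Krt8 at 854 to 1611 CPM. Each library bears its own label, and the number that opens it, called the mouse code here, has no stated meaning. The rest of the label, which differs between libraries that share a code, was not used. Vehicle held 4 of these codes and 5-FU held 3, with 0 shared, so code and treatment cannot be told apart. Code 76 was borne by 5-FU 1, 2 and 3 and code 63 by vehicle 2 and 3. Each group held 5 separate mice, so the p-values for genes measure the spread between mice, with 1 estimate shared by all 30 libraries. Whether mice that share a code are independent is not stated.

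Across the transcriptome, no gene separated the 5-FU tumours from the vehicle tumours after correction for multiple testing. Of 13663 genes tested with edgeR's quasi-likelihood test, 0 (0%) passed a Benjamini-Hochberg adjusted p of 0.05, and the lowest adjusted p was 0.818. DESeq2 and limma-voom also called 0. At an unadjusted p under 0.05, edgeR gave 226 genes higher (1.65%) and 306 lower (2.24%) in 5-FU, DESeq2 gave 609 genes in all and limma-voom 994. Under the limits that the study used, an unadjusted p under 0.05 with a log2 fold change beyond 0.6, 163 genes were higher (1.19%) and 64 lower (0.468%). All 5 libraries of 5-FU lay above all 5 of vehicle in 43 genes (0.315%) and below them in 50 (0.366%). A log2 fold change below 0 was found in 49.8% of all tested genes, and the median over all genes was 0.0011. The median standard error of a log2 fold change was 0.21. The number of genes at an unadjusted p under 0.05, 532, depended on single libraries: it was 841 without vehicle 1 and 270 without vehicle 3.

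Because no gene passed the adjusted threshold, the genes below are described by their values in each library, and "higher" and "lower" refer to the fitted mean of 5-FU relative to vehicle. Unless it is named as adjusted, the p-value given for a single gene is unadjusted, and in 5-FU against vehicle its adjusted p in edgeR was at least 0.818. The lowest adjusted p of each further comparison is given with that comparison. Counts of list members stand beside the shares over all genes in 5-FU against vehicle, which were 1.65% higher and 2.24% lower at an unadjusted p under 0.05 and 49.8% with a log2 fold change below 0. In bulk tissue, fewer cells of a type and less RNA per cell cannot be told apart.

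**Figure D1:**
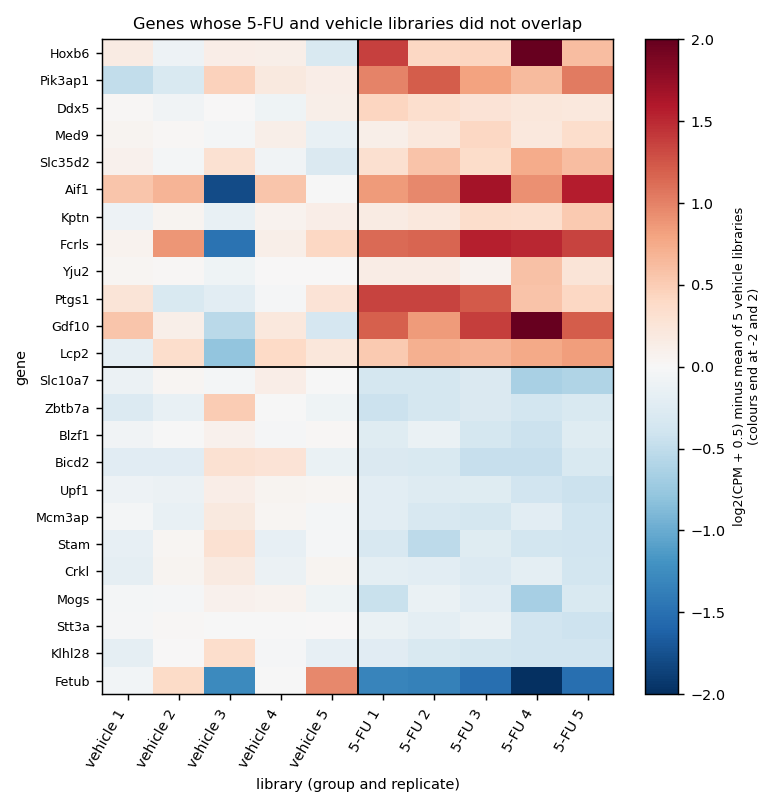
Heat map of the 24 genes with the smallest unadjusted p among those whose 5-FU and vehicle libraries did not overlap, with 1 column per library. Colour gives log2(CPM + 0.5) minus the mean of the 5 vehicle libraries and ends at -2 and 2, and a reader should see shallow, even differences in most rows, and in Hoxb6 and Gdf10 a single strong column, 5-FU 4.

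Of the 12 lower genes with the smallest p among those without overlap, 11 had a log2 fold change between -0.45 and -0.25, and the exception was Fetub. Slc10a7, a membrane protein of the secretory pathway needed for skeletal matrix formation (chr8:78509323-78734012 in GRCm38, mm10), was at 31.0, 34.6, 33.0, 37.1 and 33.4 CPM in vehicle 1 to 5 and 26.3, 26.5, 27.5, 21.3 and 22.2 CPM in 5-FU 1 to 5. Its groups did not overlap, which the choice of these genes required, and within each group the values were tight (log2 fold change -0.45 ± 0.12 (SE), unadjusted p = 0.000872). Stt3a, the catalytic subunit of the oligosaccharyltransferase that attaches N-glycans in the endoplasmic reticulum (chr9:36729344-36767622), was at 252.2, 259, 255, 256 and 258 CPM in vehicle 1 to 5 and 235, 223, 233, 197 and 192 CPM in 5-FU 1 to 5. The vehicle libraries were nearly identical, and 5-FU 4 and 5 were the lowest (log2 fold change -0.25 ± 0.087 (SE), unadjusted p = 0.00900). Mogs, the glucosidase that trims the first glucose from those glycans (chr6:83115506-83118902), was at 141, 142, 153, 153 and 136 CPM in vehicle 1 to 5 and 107, 133, 125, 91.6 and 117 CPM in 5-FU 1 to 5, with 5-FU 2 nearest to vehicle and 5-FU 4 farthest from it (log2 fold change -0.34 ± 0.12 (SE), unadjusted p = 0.00794). Blzf1, a golgin, had a log2 fold change of -0.28 (unadjusted p = 0.00357).

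Upf1, the helicase of nonsense-mediated mRNA decay (chr8:70331493-70353423), was at 104, 104, 123, 117 and 115 CPM in vehicle 1 to 5 and 97.1, 93.7, 94.5, 86.3 and 83.5 CPM in 5-FU 1 to 5, a gap between the groups in which 5-FU 5 and 5-FU 4 were lowest (log2 fold change -0.31 ± 0.10 (SE), unadjusted p = 0.00431). Mcm3ap, an mRNA export factor, had a log2 fold change of -0.30 (unadjusted p = 0.00671), Crkl, a signalling adaptor, -0.25 (unadjusted p = 0.00681), Zbtb7a, a transcriptional repressor, -0.38 (unadjusted p = 0.00327), and Stam, an endosomal sorting protein, -0.39 (unadjusted p = 0.00678). For Bicd2, a dynein adaptor, it was -0.38 (unadjusted p = 0.00398) and for Klhl28 -0.35 (unadjusted p = 0.00983). The largest difference among these 12 belonged to Fetub, a secreted protease inhibitor, which was at 3.10, 4.36, 1.06, 3.22 and 6.77 CPM in vehicle 1 to 5 and 1.00, 0.974, 0.820, 0.163 and 0.815 CPM in 5-FU 1 to 5. 5-FU 4 was the lowest, and vehicle 3 at 1.06 CPM nearly touched 5-FU 1 (log2 fold change -2.28 ± 0.90 (SE), unadjusted p = 0.0171).

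Ddx5, an RNA helicase and transcriptional co-regulator that also binds p53 (chr11:106780360-106789180), was the most abundant of the higher genes that did not overlap. It was at 726, 675, 716, 671 and 773 CPM in vehicle 1 to 5 and 953, 902, 864, 834 and 822 CPM in 5-FU 1 to 5. The 5-FU libraries all lay above the vehicle libraries, with 5-FU 1 the highest and vehicle 4 the lowest (log2 fold change 0.30 ± 0.088 (SE), unadjusted p = 0.00232). Med9, a Mediator subunit, Yju2, a splicing factor, and Kptn, a regulator of mTORC1, differed by 0.27 (unadjusted p = 0.00366), 0.26 (unadjusted p = 0.0279) and 0.33 (unadjusted p = 0.0149) on the log2 scale. Slc35d2, a nucleotide-sugar transporter of the Golgi, had a log2 fold change of 0.57 (unadjusted p = 0.00884).

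Pik3ap1, the adaptor BCAP of B cells and myeloid cells (chr19:41272541-41385102), was at 23.4, 26.8, 45.9, 38.1 and 36.3 CPM in vehicle 1 to 5 and 66.7, 76.9, 58.3, 51.7 and 68.8 CPM in 5-FU 1 to 5. Both groups were spread, and the lowest 5-FU library, 5-FU 4, stood above the highest vehicle library, vehicle 3 (log2 fold change 0.92 ± 0.26 (SE), unadjusted p = 0.00174). Aif1, which encodes the macrophage protein IBA1 (chr17:35170986-35176083), was at 8.74, 9.59, 1.32, 8.73 and 5.73 CPM in vehicle 1 to 5 and 10.9, 11.7, 19.3, 11.3 and 18.1 CPM in 5-FU 1 to 5. Vehicle 3 was far below the other vehicle libraries, and 5-FU 3 and 5 were the highest (log2 fold change 1.06 ± 0.39 (SE), unadjusted p = 0.0106). Fcrls, a macrophage and microglia surface gene, was at 6.58, 11.9, 1.93, 6.87 and 8.48 CPM in vehicle 1 to 5 and 14.3, 14.7, 19.4, 18.8 and 16.8 CPM in 5-FU 1 to 5, again with vehicle 3 the lowest (log2 fold change 1.23 ± 0.48 (SE), unadjusted p = 0.0169). Lcp2, the adaptor SLP-76 of T cells and myeloid cells, had a log2 fold change of 0.71 (unadjusted p = 0.0412) and Ptgs1, cyclooxygenase-1, 1.07 (unadjusted p = 0.0288).

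A pair of the higher genes rested largely on 1 library. Hoxb6, a homeobox gene (chr11:96292814-96301569), was at 0.188, 0.0727, 0.176, 0.170 and 0 CPM in vehicle 1 to 5 and 1.09, 0.325, 0.328, 29.2 and 0.445 CPM in 5-FU 1 to 5. The groups did not overlap, but 5-FU 4 was far above the next library, and the log2 fold change went from 5.62 ± 1.52 (SE, unadjusted p = 0.000977) to 2.12 without it. Gdf10, a secreted factor of the TGF-β superfamily, was at 0.564, 0.291, 0, 0.339 and 0.0744 CPM in vehicle 1 to 5 and 1.17, 0.811, 1.39, 9.29 and 1.19 CPM in 5-FU 1 to 5, with the same library highest (log2 fold change 3.42 ± 1.57 (SE), unadjusted p = 0.0389).

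**Figure D2:**
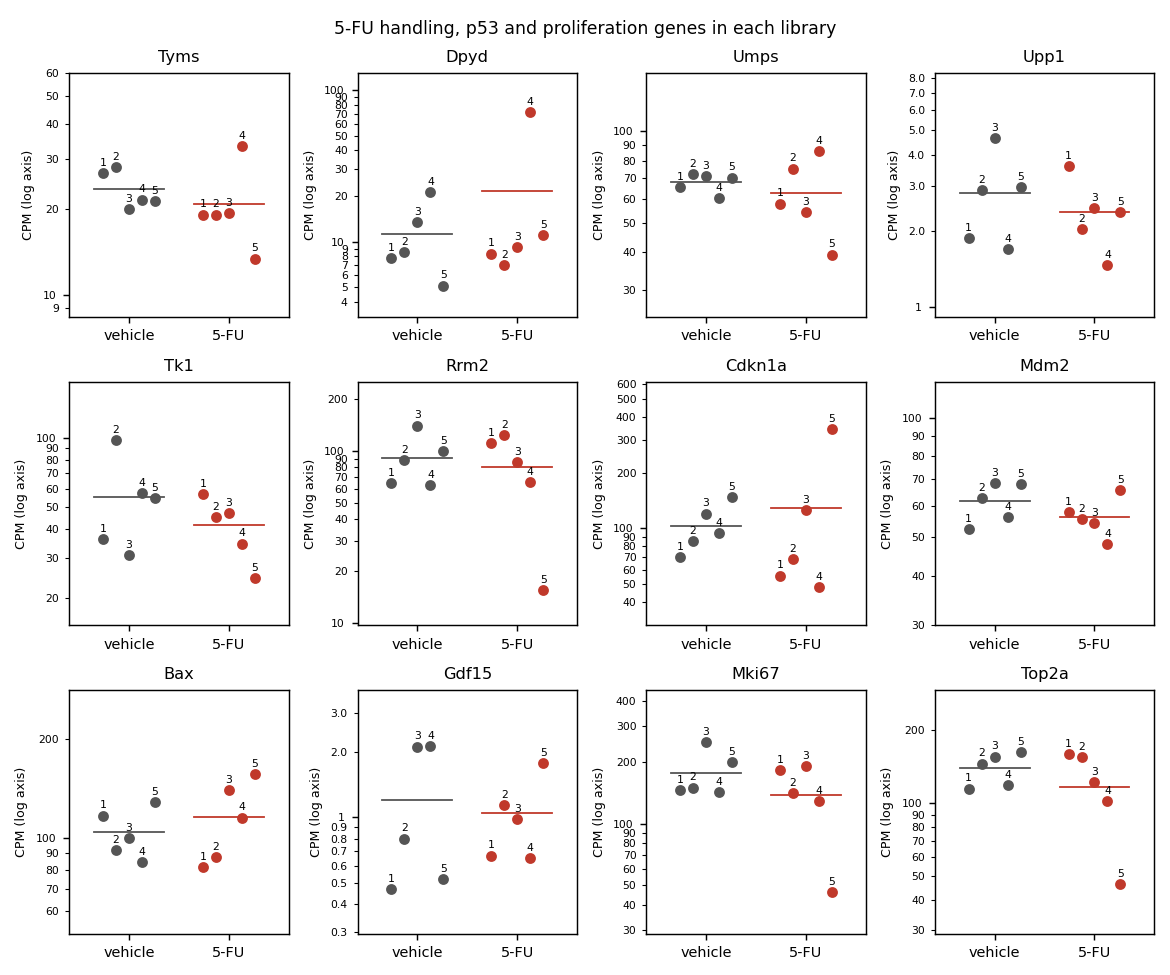
CPM (log axis) of 12 genes of 5-FU metabolism, the p53 response and proliferation in the 5 vehicle and 5 5-FU libraries, with points numbered by replicate and a line at the mean of each group. The groups overlap in all 12 panels, Dpyd is highest in 5-FU 4, and Cdkn1a is highest and Mki67, Top2a and Rrm2 lowest in 5-FU 5.

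Among the enzymes that activate, bind or degrade 5-FU, no gene reached an unadjusted p of 0.05. Of 35 genes listed, 33 were tested, 0 were higher and 0 lower at an unadjusted p under 0.05, and the median log2 fold change was -0.015, beside 0.0011 over all genes. Tyms, thymidylate synthase, the enzyme that the drug blocks (chr5:30038546-30073645), was at 26.9, 28.0, 20.0, 21.6 and 21.4 CPM in vehicle 1 to 5 and 19.2, 19.1, 19.3, 33.4 and 13.4 CPM in 5-FU 1 to 5. 5-FU 4 was the highest and 5-FU 5 the lowest of all 10 libraries, so the extremes fell in 1 group (log2 fold change -0.18 ± 0.24 (SE), unadjusted p = 0.467, 95% interval -0.66 to 0.31). Dpyd, which encodes dihydropyrimidine dehydrogenase, was at 7.798, 8.502, 13.5, 21.3 and 5.13 CPM in vehicle 1 to 5 and 8.36, 6.98, 9.26, 71.7 and 11.0 CPM in 5-FU 1 to 5. Its value was several times higher in 5-FU 4 than in any other library, and the log2 fold change of 0.93 (unadjusted p = 0.188) became -0.34 without that library.

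Among the activating enzymes, Umps, which forms the fluorinated nucleotide, was at 65.6, 72.4, 71.24, 60.3 and 70.4 CPM in vehicle 1 to 5 and 57.9, 75.4, 54.1, 86.3 and 39.3 CPM in 5-FU 1 to 5, highest in 5-FU 4 and lowest in 5-FU 5 (log2 fold change -0.12 ± 0.16 (SE), unadjusted p = 0.460). Upp1, uridine phosphorylase, ranged over 1.70 to 4.66 CPM in vehicle and 1.47 to 3.60 CPM in 5-FU (log2 fold change -0.24 ± 0.41 (SE), unadjusted p = 0.555) and Tk1, thymidine kinase, over 30.7 to 97.4 CPM in vehicle and 24.4 to 56.7 CPM in 5-FU (log2 fold change -0.41 ± 0.38 (SE), unadjusted p = 0.292). Rrm2, the cell-cycle regulated subunit of ribonucleotide reductase, was at 65.01, 88.5, 139.9, 62.8 and 99.7 CPM in vehicle 1 to 5 and 111, 123, 85.98, 66.1 and 15.5 CPM in 5-FU 1 to 5. Here 5-FU 5 was far below all other libraries while 5-FU 1 and 2 were above most of vehicle (log2 fold change -0.18 ± 0.43 (SE), unadjusted p = 0.677). Dut, which hydrolyses dUTP and so limits uracil in DNA, ranged over 37.8 to 55.9 CPM in vehicle and 28.9 to 97.0 CPM in 5-FU, with 5-FU 4 the highest (log2 fold change 0.23 ± 0.23 (SE), unadjusted p = 0.334).

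The p53 targets were centred on 0. All 36 listed genes were tested, 18 had a log2 fold change above 0 and 18 below, 0 passed an unadjusted p of 0.05 in either direction, and the median was 0.0069. The summed level of the list was 2608 CPM in 5-FU 5 and 1536 to 2043 CPM in the other libraries. Of the 36 genes, 14 were highest in 5-FU 5 and 11 in vehicle 3. Cdkn1a, the cell-cycle inhibitor p21 (chr17:29090979-29100722), was at 69.9, 85.2, 120.0, 94.7 and 148 CPM in vehicle 1 to 5 and 55.6, 68.0, 126, 48.1 and 343 CPM in 5-FU 1 to 5. 5-FU 5 had the highest value of the 10 libraries and 5-FU 4 the lowest, and the other 8 overlapped (log2 fold change 0.31 ± 0.44 (SE), unadjusted p = 0.486). Without 5-FU 5 the log2 fold change was -0.48. Mdm2, the ubiquitin ligase that p53 induces against itself, was at 52.3, 62.7, 68.4, 56.1 and 67.9 CPM in vehicle 1 to 5 and 57.9, 55.6, 54.3, 48.0 and 65.7 CPM in 5-FU 1 to 5, a narrow range in both groups (log2 fold change -0.13 ± 0.11 (SE), unadjusted p = 0.253, 95% interval -0.35 to 0.10). Bax, an executor of mitochondrial apoptosis, was at 117, 91.9, 100.3, 84.5 and 128 CPM in vehicle 1 to 5 and 81.8, 87.6, 140.0, 116 and 157 CPM in 5-FU 1 to 5, with 5-FU 5 and 5-FU 3 the highest (log2 fold change 0.16 ± 0.23 (SE), unadjusted p = 0.506), and Gdf15, a stress cytokine, ranged over 0.470 to 2.12 CPM in vehicle and 0.652 to 1.78 CPM in 5-FU (log2 fold change -0.20 ± 0.61 (SE), unadjusted p = 0.748). Plk3, a stress-induced kinase, was highest in vehicle 3 and lowest in 5-FU 4 (log2 fold change -0.63 ± 0.38 (SE), unadjusted p = 0.106). The death receptor gene Fas ranged over 3.08 to 10.3 CPM in vehicle and 7.36 to 15.6 CPM in 5-FU (log2 fold change 0.55 ± 0.32 (SE), unadjusted p = 0.0955).

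Of the 25 listed genes of the BCL2 family and the caspase machinery, 23 were tested, with a median log2 fold change of 0.076. At an unadjusted p under 0.05, 0 were higher and 1 was lower. This was Bid, the BH3-only protein that links death receptors to mitochondria, at 48.8, 51.8, 39.2, 36.2 and 52.9 CPM in vehicle 1 to 5 and 42.7, 34.7, 34.3, 24.9 and 25.7 CPM in 5-FU 1 to 5. The ranges overlapped, with 5-FU 4 and 5 the lowest (log2 fold change -0.50 ± 0.21 (SE), unadjusted p = 0.0242).

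Proliferation genes set 1 tumour of the 5-FU group apart. All 34 tested genes of the mitosis list had a log2 fold change below 0, where 49.8% of all genes did, with a median of -0.27, but 0 had an unadjusted p under 0.05, and all 34 had their lowest value in 5-FU 5. The summed level of the list was 1408, 1739.5, 1933, 1306 and 1910.5 CPM in vehicle 1 to 5 and 1737, 1725, 1553, 1384 and 449.6 CPM in 5-FU 1 to 5. 5-FU 1 to 4 lay within the range of vehicle and 5-FU 5 far below it, and the median was -0.048 without 5-FU 5. Mki67, the gene of the Ki-67 proliferation antigen (chr7:135689780-135716450), was at 146, 150.3, 251, 142 and 200.1 CPM in vehicle 1 to 5 and 183, 141, 192, 129 and 46.2 CPM in 5-FU 1 to 5, and Top2a, topoisomerase IIα, at 115, 146, 156, 119 and 162 CPM in vehicle 1 to 5 and 159, 155, 123, 102 and 46.5 CPM in 5-FU 1 to 5. In both genes 5-FU 5 was alone at the bottom, and the other 5-FU libraries overlapped vehicle. The log2 fold changes were -0.36 (unadjusted p = 0.384) for Mki67, -0.25 (unadjusted p = 0.492) for Top2a and -0.43 (unadjusted p = 0.188) for Foxm1, the transcription factor of the mitotic programme.

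The 38 genes of DNA replication and S phase had a median of -0.036, with 15 above and 23 below 0 and 0 at an unadjusted p under 0.05. Of these 38, 36 were lowest in 5-FU 5 and 16 highest in 5-FU 4, so this list spread more within 5-FU than between the groups. Mcm2, a subunit of the replicative helicase, was at 58.4, 66.3, 85.0, 52.8 and 73.04 CPM in vehicle 1 to 5 and 68.1, 77.2, 61.1, 96.2 and 23.5 CPM in 5-FU 1 to 5, which placed both the highest and the lowest library in 5-FU (log2 fold change -0.042 ± 0.28 (SE), unadjusted p = 0.883). Pcna, the sliding clamp of DNA polymerase, ranged over 136 to 185 CPM in vehicle and 103 to 233 CPM in 5-FU (log2 fold change 0.0051 ± 0.17 (SE), unadjusted p = 0.976). The 42 genes of DNA damage checkpoints and repair had a median of -0.10, with 0 at an unadjusted p under 0.05 in either direction.

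Ribosome production and the RNA exosome, which 5-FU in RNA is known to disturb, had list medians near 0. The 45 genes of this list had a median of -0.030 and the 79 cytosolic ribosomal protein genes 0.060, and 0 of either list had an unadjusted p under 0.05. Of the ribosomal protein genes, 70 were above 0, but the median was -0.066 without 5-FU 4, and their near-identical pseudogenes can take part of their reads. Pus7, a pseudouridine synthase, was at 46.7, 47.2, 66.2, 41.3 and 44.5 CPM in vehicle 1 to 5 and 44.2, 46.7, 38.5, 49.7 and 29.1 CPM in 5-FU 1 to 5, highest in vehicle 3 and lowest in 5-FU 5 (log2 fold change -0.24 ± 0.15 (SE), unadjusted p = 0.114).

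Genes of the unfolded protein response were lower in the mean of 5-FU. Of 25 tested genes of the integrated and endoplasmic reticulum stress list, 22 had a log2 fold change below 0, the median was -0.28, and 0 were higher and 3 lower at an unadjusted p under 0.05, beside 2.24% lower over all genes. Hspa5, which encodes the chaperone BiP (chr2:34772090-34776529), was at 1408, 1575, 1353, 1288 and 1409 CPM in vehicle 1 to 5 and 1398, 1224, 1115, 580.0 and 769 CPM in 5-FU 1 to 5. 5-FU 4 and 5 were clearly below vehicle, 5-FU 2 and 3 slightly below, and 5-FU 1 was within it (log2 fold change -0.47 ± 0.19 (SE), unadjusted p = 0.0219). Hsp90b1, the chaperone GRP94, was at 1441, 1436, 1222, 1332 and 1453 CPM in vehicle 1 to 5 and 1488, 1251, 1166, 701 and 797 CPM in 5-FU 1 to 5, with the same pair of libraries lowest (log2 fold change -0.35 ± 0.17 (SE), unadjusted p = 0.0469). Atf4, the transcription factor of the integrated stress response, was at 197, 180.1, 233, 144 and 157 CPM in vehicle 1 to 5 and 158, 129, 144, 110.5 and 139 CPM in 5-FU 1 to 5. Its 5-FU values overlapped the lower end of vehicle, and vehicle 3 was the highest (log2 fold change -0.42 ± 0.17 (SE), unadjusted p = 0.0224). The list's median was -0.16 without vehicle 3 and -0.092 without both vehicle 3 and 5-FU 4. Ddit3, the pro-apoptotic factor CHOP, was highest in 5-FU 5 at 32.8 CPM and between 8.80 and 15.9 CPM in the other 9 libraries.

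Hypoxia-response genes were lower in the mean of 5-FU, and this rested largely on vehicle 3. All 16 tested genes had a log2 fold change below 0, the median was -0.71, and 0 were higher and 5 lower at an unadjusted p under 0.05 (Ero1l, Vegfa, Adm, Pgk1 and Slc2a1), where over all genes 49.8% were below 0 and 2.24% lower at that p. Vegfa, the angiogenic growth factor, was at 42.7, 46.9, 272, 40.5 and 63.7 CPM in vehicle 1 to 5 and 46.3, 40.2, 24.8, 11.3 and 42.6 CPM in 5-FU 1 to 5. Vehicle 3 was several times above every other library and 5-FU 4 was the lowest, while the remaining 8 overlapped (log2 fold change -1.50 ± 0.69 (SE), unadjusted p = 0.0404). Ero1l, an oxidase of the endoplasmic reticulum, was at 90.8, 119, 366, 116 and 124 CPM in vehicle 1 to 5 and 110.5, 109, 90.9, 44.4 and 55.3 CPM in 5-FU 1 to 5, with the same libraries at both ends (log2 fold change -0.99 ± 0.36 (SE), unadjusted p = 0.0112). Pgk1, a glycolytic enzyme, was at 333, 501, 1289, 374 and 540.2 CPM in vehicle 1 to 5 and 469, 419, 339, 189.7 and 284 CPM in 5-FU 1 to 5 (log2 fold change -0.84 ± 0.39 (SE), unadjusted p = 0.0437), and Slc2a1, the glucose transporter GLUT1, at 95.3, 104, 223, 135 and 167 CPM in vehicle 1 to 5 and 118, 95.1, 104, 46.4 and 124 CPM in 5-FU 1 to 5 (log2 fold change -0.57 ± 0.28 (SE), unadjusted p = 0.0486). Adm, adrenomedullin, differed by -1.82 (unadjusted p = 0.0414). Of the 16 genes, 14 were highest in vehicle 3 and 7 lowest in 5-FU 4, and the list's median was -0.37 without vehicle 3 and -0.20 without both.

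Other stress programmes had medians nearer to 0. The heat shock list had a median of -0.14 over 12 genes. Its member Dnajb1, an HSP40 co-chaperone, was at 59.5, 67.5, 76.51, 65.3 and 61.7 CPM in vehicle 1 to 5 and 49.0, 52.0, 55.6, 53.6 and 51.8 CPM in 5-FU 1 to 5, so every 5-FU library was below every vehicle library (log2 fold change -0.34 ± 0.16 (SE), unadjusted p = 0.0512). The near-identical copies Hspa1a and Hspa1b, which share reads, were lowest in 5-FU 4. Of 15 listed NRF2 and heme-stress genes 14 were tested, with a median of -0.052 and 0 at an unadjusted p under 0.05. Hmox1, which encodes heme oxygenase-1, was at 32.9, 51.3, 84.7, 59.9 and 18.4 CPM in vehicle 1 to 5 and 33.9, 35.2, 63.9, 12.1 and 48.9 CPM in 5-FU 1 to 5. The groups overlapped throughout, with vehicle 3 the highest and 5-FU 4 the lowest (log2 fold change -0.35 ± 0.63 (SE), unadjusted p = 0.585). The NF-kB and acute inflammation list had a median of 0.19 over 16 of 19 genes, with 0 at an unadjusted p under 0.05, and Icam1, an adhesion molecule, ranged over 3.42 to 8.14 CPM in vehicle and 4.15 to 19.2 CPM in 5-FU (log2 fold change 1.00 ± 0.49 (SE), unadjusted p = 0.0509).

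Genes of the cholesterol synthesis list were lower in the mean of 5-FU. Of 18 listed genes 17 were tested. All 17 had a log2 fold change below 0, the median was -0.43, and 0 were higher and 5 lower at an unadjusted p under 0.05, with Cyp51, Sc5d, Lss and Mvd among the 5, where over all genes 49.8% were below 0 and 2.24% lower at that p. These genes are known targets of SREBP-2, a transcription factor that is released when sterols run short and acts with NF-Y at their promoters. The 250 bases before the transcription start are shown for 4 members. All 4 hold the short motif of NF-Y, and only Hmgcs1 also holds that of SREBP-2. Capitals mark CCAAT or its reverse complement ATTGG (the NF-Y box) and, in Hmgcs1 only, the sterol regulatory element TCACNCCAC. Sequences are from RefSeq on GRCm38.p6, 5′ to 3′ on the strand of the gene.

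Hmgcs1 (chr13:119690101-119690350, plus strand): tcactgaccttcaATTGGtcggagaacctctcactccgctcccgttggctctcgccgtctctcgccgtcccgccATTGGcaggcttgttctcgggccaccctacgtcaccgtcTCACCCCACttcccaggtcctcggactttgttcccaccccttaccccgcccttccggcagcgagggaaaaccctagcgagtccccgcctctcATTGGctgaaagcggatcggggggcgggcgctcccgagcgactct
Cyp51 (chr5:4104698-4104947, minus strand): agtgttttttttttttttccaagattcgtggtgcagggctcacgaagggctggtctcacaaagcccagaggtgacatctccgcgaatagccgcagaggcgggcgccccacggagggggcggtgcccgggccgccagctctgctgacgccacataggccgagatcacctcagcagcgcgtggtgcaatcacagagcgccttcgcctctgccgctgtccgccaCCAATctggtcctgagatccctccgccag
Mvd (chr8:122443423-122443672, minus strand): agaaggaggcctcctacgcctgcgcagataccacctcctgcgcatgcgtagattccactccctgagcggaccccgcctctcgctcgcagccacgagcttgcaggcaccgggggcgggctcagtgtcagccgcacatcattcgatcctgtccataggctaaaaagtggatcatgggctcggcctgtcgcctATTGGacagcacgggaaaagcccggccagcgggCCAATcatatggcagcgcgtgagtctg
Sc5d (chr9:42264301-42264550, minus strand): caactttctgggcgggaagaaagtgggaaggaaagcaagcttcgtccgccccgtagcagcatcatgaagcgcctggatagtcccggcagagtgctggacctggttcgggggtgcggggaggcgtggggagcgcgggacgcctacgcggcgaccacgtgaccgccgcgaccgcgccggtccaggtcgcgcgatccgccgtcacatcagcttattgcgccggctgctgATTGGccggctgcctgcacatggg

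Of the 18 listed genes 10 had a promoter in the table used, and each of the 10 held at least 1 CCAAT on either strand in at least 1 of its windows. Counted by window, 10 of 12 did, since Dhcr7 has 3 and CCAAT was in 1 of them, against 33.8% of the 32851 promoters of the same length. The motif TCACNCCAC, searched on both strands with N standing for any base, was in 1 of the 12 windows (Hmgcs1) and in 1.05% of all promoters. A match describes these letters in this window and does not show binding.

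Cyp51, lanosterol demethylase (chr5:4080674-4104697), was at 51.5, 52.0, 69.04, 45.4 and 54.5 CPM in vehicle 1 to 5 and 49.8, 43.8, 24.7, 35.5 and 17.6 CPM in 5-FU 1 to 5. 5-FU 2 to 5 were below all vehicle libraries, with 5-FU 5 lowest and 5-FU 3 next, and 5-FU 1 was within the range of vehicle (log2 fold change -0.67 ± 0.26 (SE), unadjusted p = 0.0177). Sc5d, which introduces a late double bond of the sterol, was at 41.1, 42.8, 47.7, 36.4 and 38.2 CPM in vehicle 1 to 5 and 36.1, 33.8, 27.1, 29.5 and 33.4 CPM in 5-FU 1 to 5, and it was the only member whose groups did not overlap, by a margin of less than 1 CPM between 5-FU 1 and vehicle 4 (log2 fold change -0.37 ± 0.15 (SE), unadjusted p = 0.0244).

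Lss, which closes the sterol rings, was at 35.7, 37.4, 43.0, 42.8 and 45.8 CPM in vehicle 1 to 5 and 39.4, 39.3, 20.7, 26.3 and 19.0 CPM in 5-FU 1 to 5 (log2 fold change -0.50 ± 0.23 (SE), unadjusted p = 0.0366), and Mvd, a decarboxylase early in the pathway, at 24.5, 23.5, 32.0, 14.4 and 21.8 CPM in vehicle 1 to 5 and 24.3, 19.1, 11.7, 13.8 and 7.63 CPM in 5-FU 1 to 5 (log2 fold change -0.60 ± 0.28 (SE), unadjusted p = 0.0422). In both, 5-FU 1 and 2 lay within vehicle and 5-FU 3, 4 and 5 lay below it. Hmgcs1, the synthase that feeds the pathway, differed by -0.43 (unadjusted p = 0.191) on the log2 scale. The summed level of the list was 942, 1005, 1149.7, 889 and 1040.0 CPM in vehicle 1 to 5 and 1059, 917, 556, 736 and 463 CPM in 5-FU 1 to 5. 5-FU 1 and 2 were inside the range of vehicle and 5-FU 3, 4 and 5 were below it. 5-FU 5 and 3 were the lowest, and 14 of the 17 genes had their minimum in 5-FU 5. Leaving out 1 library at a time kept the median between -0.64 and -0.30, and it was -0.40 without both vehicle 3 and 5-FU 4.

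**Figure D3:**
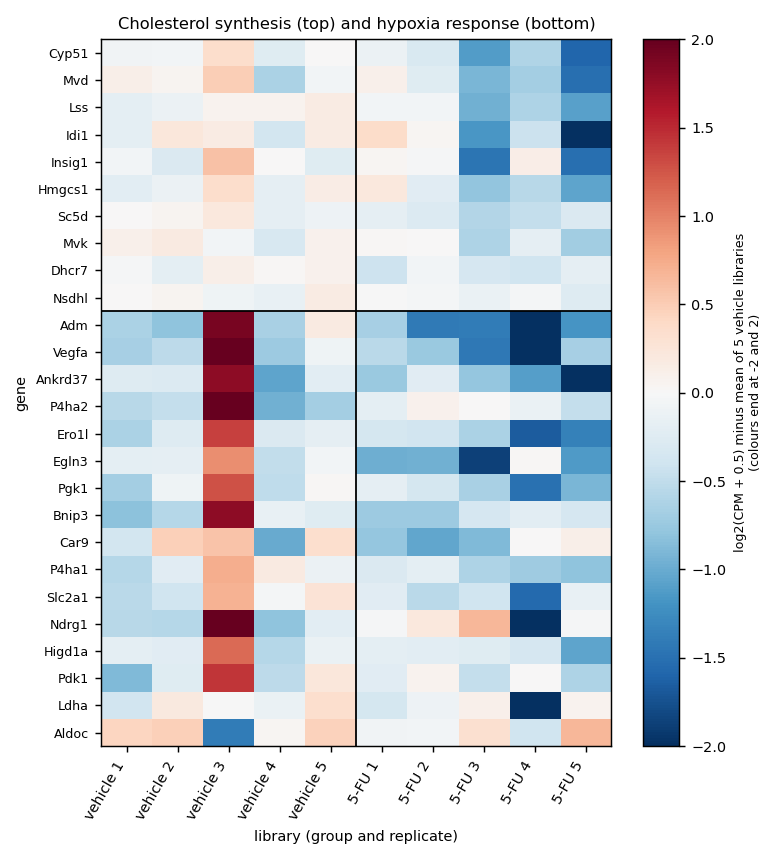
Heat map of the 10 cholesterol genes with a promoter in the table and the 16 hypoxia-response genes, with 1 column per library and colour giving log2(CPM + 0.5) minus the mean of the 5 vehicle libraries. Most of the cholesterol genes shown are lowest in 5-FU 5, whereas in the hypoxia genes the contrast lies mostly between vehicle 3, the highest in 14 of 16, and the rest.

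Transcripts of T cells and cytotoxic cells were sparse and higher in the mean of 5-FU. Of 38 listed genes 35 were in the table and 18 passed the filter on low counts. All 18 had a log2 fold change above 0, with a median of 1.08, and 3 were higher and 0 lower at an unadjusted p under 0.05, beside 1.65% higher over all genes. The summed level of the 35 genes was 32.1, 31.4, 16.1, 39.1 and 23.8 CPM in vehicle 1 to 5 and 39.8, 52.6, 56.9, 49.9 and 60.5 CPM in 5-FU 1 to 5. By this sum every 5-FU library lay above every vehicle library, with vehicle 4 and 5-FU 1 less than 1 CPM apart. Abundant members weigh most in a sum, and this one includes Thy1, which fibroblasts also express. The sum without Thy1 was not taken. By the mean log2 level of the 18 tested genes the groups overlapped, with vehicle 4 at 0.905 and 5-FU 1 at 0.815. On that measure 5-FU 2 to 5, at 1.13 to 1.35, lay above every vehicle library. Vehicle 3 was the lowest, and the median of the fold changes was 0.85 without both vehicle 3 and 5-FU 4. Since a gene could pass the filter through the group in which it was high, the count of genes above 0 is a description only.

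Gzmb, the granule protease granzyme B (chr14:56258836-56262334), was at 2.16, 1.45, 1.495, 3.73 and 2.98 CPM in vehicle 1 to 5 and 1.17, 4.46, 6.31, 13.6 and 10.004 CPM in 5-FU 1 to 5. 5-FU 2 to 5 were above all vehicle libraries, 5-FU 4 and 5 most of all, and 5-FU 1 was below them (log2 fold change 1.59 ± 0.55 (SE), unadjusted p = 0.00791). Ncr1, the receptor NKp46 of natural killer cells, was at 0.282, 0, 0.0879, 0.254 and 0.0744 CPM in vehicle 1 to 5 and 0.418, 0.406, 0.492, 1.38 and 0.593 CPM in 5-FU 1 to 5 over 8 reads in all of vehicle, and its groups did not overlap (log2 fold change 2.20 ± 0.90 (SE), unadjusted p = 0.0220). Klrd1, the receptor CD94, rested on 4 reads in vehicle (log2 fold change 2.21 ± 1.03 (SE), unadjusted p = 0.0403). Cd8a, the co-receptor of cytotoxic T cells, was at 0.564, 0.363, 0.616, 1.53 and 0.967 CPM in vehicle 1 to 5 and 0.502, 1.54, 2.46, 1.14 and 3.48 CPM in 5-FU 1 to 5. 5-FU 5 and 3 were the highest, 5-FU 1 was among the lowest, and the groups overlapped (log2 fold change 1.17 ± 0.64 (SE), unadjusted p = 0.0792). Lck, the proximal kinase of the T-cell receptor, did not overlap between the groups, at 1.64 to 2.71 CPM in vehicle and 3.26 to 5.19 CPM in 5-FU (log2 fold change 0.90 ± 0.45 (SE), unadjusted p = 0.0548), nor did Thy1, at 3.52 to 7.89 CPM in vehicle and 8.52 to 14.9 CPM in 5-FU (log2 fold change 0.83 ± 0.52 (SE), unadjusted p = 0.124), a gene that fibroblasts also express.

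Macrophage genes were also higher in the mean of 5-FU. All 24 listed genes were tested, 22 had a log2 fold change above 0, the median was 0.72, and 1 was higher and 0 lower at an unadjusted p under 0.05, beside 1.65% higher over all genes. That gene, Ms4a7, a membrane protein of tissue macrophages, was at 9.30, 22.7, 2.73, 13.4 and 8.03 CPM in vehicle 1 to 5 and 19.8, 28.2, 35.2, 13.0 and 18.9 CPM in 5-FU 1 to 5. Vehicle 3 was the lowest and the groups overlapped, since 5-FU 4 was below vehicle 2 and 4 (log2 fold change 1.03 ± 0.47 (SE), unadjusted p = 0.0387). C1qa, a subunit of complement C1q, was at 59.8, 73.9, 9.67, 63.01 and 31.4 CPM in vehicle 1 to 5 and 80.3, 97.1, 112, 47.4 and 78.8 CPM in 5-FU 1 to 5, with vehicle 3 and 5 lowest and 5-FU 4 within vehicle (log2 fold change 0.80 ± 0.39 (SE), unadjusted p = 0.0512). Csf1r, the receptor for the macrophage growth factor, ranged over 14.3 to 58.3 CPM in vehicle and 25.8 to 63.28 CPM in 5-FU (log2 fold change 0.46 ± 0.38 (SE), unadjusted p = 0.235). Lyve1, a marker of perivascular macrophages and lymphatic vessels, was at 1.78, 0.0727, 0.352, 4.24 and 0.818 CPM in vehicle 1 to 5 and 5.10, 2.11, 1.39, 0 and 4.59 CPM in 5-FU 1 to 5, spread over a similar range in both groups (log2 fold change 0.86 ± 1.21 (SE), unadjusted p = 0.482). The summed level of the list was 657 to 2762 CPM in vehicle (median 2068) and 2697 to 4531 CPM in 5-FU (median 2784). By the mean log2(CPM + 0.5) of the list, 5-FU 4 was at 3.45 and vehicle 3 at 2.94. Both were below vehicle 1, 2, 4 and 5, which ranged over 3.56 to 4.47. Of the 24 genes, 15 had their lowest value in vehicle 3, and the median was 0.68 without vehicle 3 and 5-FU 4.

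Of 45 chemokines and receptors listed, 34 were tested, with a median of 0.63, and 3 were higher and 0 lower at an unadjusted p under 0.05, beside 1.65% higher over all genes. Ccl21a, a chemokine of lymphatic vessels that attracts T cells and dendritic cells (chr4:42772860-42773991), had 0 reads in all 5 vehicle libraries and 3.51, 1.70, 3.28, 0 and 10.3 CPM in 5-FU 1 to 5. It was detected in 4 of the 5 5-FU libraries, with 5-FU 5 the highest and 5-FU 4 at 0, and its 242 reads made it at least 79.1-fold higher over the group than a floor of 3 reads in all of vehicle allows. Near-identical copies of this gene can share its reads. Cx3cr1, the fractalkine receptor of monocytes and macrophages, was at 23.96, 36.8, 6.07, 37.7 and 19.8 CPM in vehicle 1 to 5 and 37.97, 46.9, 57.2, 29.2 and 45.1 CPM in 5-FU 1 to 5, lowest in vehicle 3 and overlapping otherwise (log2 fold change 0.80 ± 0.37 (SE), unadjusted p = 0.0424). Ccl24 rested on 5 reads in vehicle and was highest in 5-FU 1 at 2.84 CPM (log2 fold change 2.96 ± 1.42 (SE), unadjusted p = 0.0468).

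Cxcl12, which stromal cells secrete to retain CXCR4-bearing cells, was at 29.9, 14.6, 4.66, 22.9 and 18.6 CPM in vehicle 1 to 5 and 29.3, 19.4, 24.7, 15.1 and 48.8 CPM in 5-FU 1 to 5 (log2 fold change 0.60 ± 0.67 (SE), unadjusted p = 0.380), and Cxcl14, an epithelial and stromal chemokine, at 21.3, 15.8, 2.20, 10.01 and 7.14 CPM in vehicle 1 to 5 and 29.3, 17.3, 16.8, 27.4 and 16.0 CPM in 5-FU 1 to 5 (log2 fold change 0.92 ± 0.58 (SE), unadjusted p = 0.126). Vehicle 3 was the lowest library for both, and the groups overlapped. Dendritic cell genes had a median of 0.66 over 10 of 12 genes and neutrophil genes 0.35 over 8 of 15, both with 0 at an unadjusted p under 0.05, and these medians were 0.44 without vehicle 3 and 0.051 without 5-FU 3. Of 16 B and plasma cell genes only 3 passed the filter (Cd22, Jchain and Sdc1), with a median of -0.46, and 1 was lower. The median was 0.60 without vehicle 1. The lower gene was Sdc1, a proteoglycan that epithelial cells also express, highest in vehicle 3 at 313 CPM (log2 fold change -0.46 ± 0.21 (SE), unadjusted p = 0.0402).

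Interferon genes varied widely between tumours within both groups. The interferon-stimulated list had a median of 0.088 over 26 of 29 genes with 0 at an unadjusted p under 0.05, and 24 of the 26 were highest in 5-FU 2. Its summed level was 1099, 629.7, 1416, 1287 and 547 CPM in vehicle 1 to 5 and 986, 2343, 612, 539 and 599.7 CPM in 5-FU 1 to 5, so both the highest and the lowest library belonged to 5-FU. The median was -0.47 without 5-FU 2. Ifit1, an RNA-binding antiviral protein, was at 28.7, 11.6, 32.1, 44.3 and 12.9 CPM in vehicle 1 to 5 and 28.8, 82.0, 12.5, 11.6 and 10.5 CPM in 5-FU 1 to 5 (log2 fold change 0.17 ± 0.78 (SE), unadjusted p = 0.832). For interferon-gamma response and antigen presentation the median was 0.38 over 22 of 28 genes, with 1 higher and 0 lower at an unadjusted p under 0.05, and it was 0.20 without 5-FU 2. Psmb9, a subunit of the immunoproteasome, was at 25.4, 16.1, 14.3, 27.5 and 15.2 CPM in vehicle 1 to 5 and 22.9, 40.5, 20.9, 39.5 and 30.5 CPM in 5-FU 1 to 5, highest in 5-FU 2 and 4 and overlapping otherwise (log2 fold change 0.65 ± 0.30 (SE), unadjusted p = 0.0373).

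Of 23 fibroblast and matrix genes, 22 had a log2 fold change above 0, the median was 0.83, and 0 had an unadjusted p under 0.05 in either direction. Their summed level was 327 to 1631 CPM in vehicle (median 1163) and 922 to 2314 CPM in 5-FU (median 2072), and 17 of the 23 were lowest in vehicle 3. Lum, the collagen-binding proteoglycan lumican, was at 14.6, 13.2, 0, 16.7 and 4.69 CPM in vehicle 1 to 5 and 37.7, 27.8, 35.8, 22.5 and 33.8 CPM in 5-FU 1 to 5, so the groups did not overlap, with vehicle 3 at 0 (log2 fold change 1.68 ± 1.02 (SE), unadjusted p = 0.1099). Col1a1, a chain of type I collagen, ranged over 34.2 to 237 CPM in vehicle and 99.2 to 345 CPM in 5-FU (log2 fold change 0.78 ± 0.71 (SE), unadjusted p = 0.282). The 18 endothelial genes were all above 0, with a median of 0.54 and 1 higher and 0 lower at an unadjusted p under 0.05, and 13 of them were highest in 5-FU 5. The median was 0.30 without that library. The higher gene was Sele, E-selectin, an adhesion molecule of activated endothelium, at 0.282, 0.0727, 0, 0.254 and 0.149 CPM in vehicle 1 to 5 and 1.34, 0.568, 0.656, 0.244 and 0.667 CPM in 5-FU 1 to 5, where only 5-FU 4 fell within the range of vehicle (log2 fold change 2.14 ± 0.88 (SE), unadjusted p = 0.0223). Pecam1, a pan-endothelial marker, was at 21.3, 32.1, 18.2, 28.2 and 25.7 CPM in vehicle 1 to 5 and 34.1, 25.9, 31.4, 15.2 and 43.1 CPM in 5-FU 1 to 5 (log2 fold change 0.25 ± 0.50 (SE), unadjusted p = 0.617).

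Of 8 lymphatic endothelial genes 7 were tested, with a median of 0.86, and 2 were higher at an unadjusted p under 0.05, Ccl21a and Mmrn1. The median was 0.49 without 5-FU 1 and 1.26 without vehicle 4. Mmrn1, the matrix protein multimerin, was at 0, 0, 0.176, 0 and 0 CPM in vehicle 1 to 5 and 1.17, 1.22, 0.820, 0 and 3.04 CPM in 5-FU 1 to 5. It had 2 reads in vehicle and 80 in 5-FU, a ratio of 39.2 with a 95% counting interval of 10.5 to 329, and 5-FU 4 had none. Prox1, the master regulator of lymphatic identity, was at 3.38, 3.27, 9.06, 4.92 and 1.64 CPM in vehicle 1 to 5 and 2.93, 3.89, 3.28, 13.3 and 2.67 CPM in 5-FU 1 to 5, highest in 5-FU 4 and vehicle 3 (log2 fold change 0.23 ± 0.58 (SE), unadjusted p = 0.701).

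**Figure D4:**
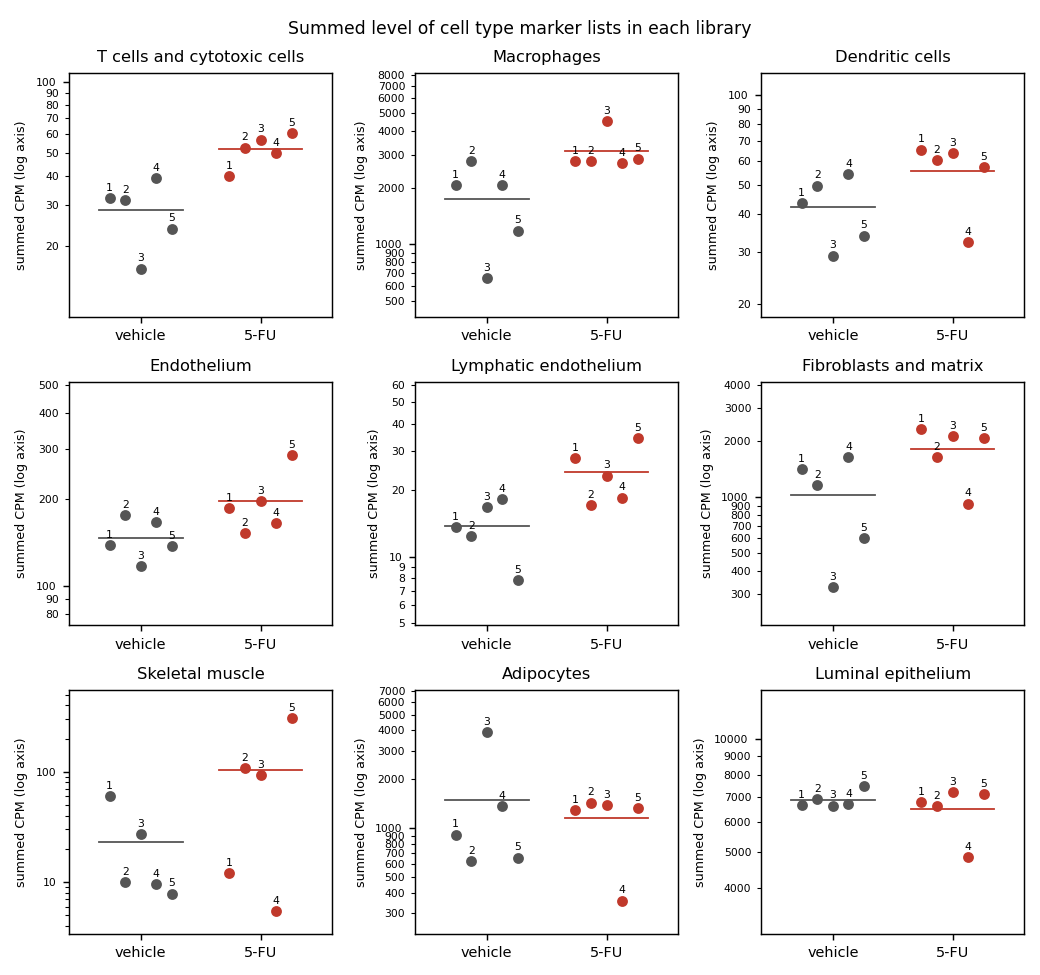
Summed CPM (log axis) of 9 marker lists in each library, with points numbered by replicate. Abundant members weigh most in a sum, and the adipocyte point of vehicle 3 is mostly Scd1. The T cell sum includes Thy1, which fibroblasts also express. In the T cell panel the 5 vehicle points lie at 16.1 to 39.1 CPM and the 5 5-FU points at 39.8 to 60.5 CPM without overlap, and the skeletal muscle panel spreads most, from 5.46 to 304 CPM within 5-FU. By the mean log2 level of the T cell list, which is not drawn, vehicle 4 (0.905) was above 5-FU 1 (0.815).

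Markers of neighbouring tissue moved with single libraries, and their part in the results above was not tested. The summed level of the 16 skeletal muscle genes was 60.2, 10.03, 27.4, 9.58 and 7.88 CPM in vehicle 1 to 5 and 12.04, 108, 92.7, 5.46 and 304 CPM in 5-FU 1 to 5. 5-FU 5, 2 and 3 and vehicle 1 were the highest, so muscle RNA was present in some tumours of both groups. The median log2 fold change was 2.85, with 1 higher (Myh1) and 0 lower at an unadjusted p under 0.05, and it was 4.90 without vehicle 1. Myh1, a fast myosin heavy chain, was at 1.22, 0, 0.0879, 0 and 0 CPM in vehicle 1 to 5 and 0, 2.84, 3.85, 0 and 40.6 CPM in 5-FU 1 to 5 (log2 fold change 5.26 ± 2.18 (SE), unadjusted p = 0.0228). Adipocyte genes had a median of -0.16, which was 1.38 without vehicle 4, and a summed level of 625 to 3925 CPM in vehicle (median 911) and 358 to 1435 CPM in 5-FU (median 1335), and Adipoq, the adipocyte hormone adiponectin, was at 0 in vehicle 3 and 5-FU 4. The highest sum was that of vehicle 3, where Scd1 alone, a lipid desaturase gene, was at 3770 CPM. The mean log2(CPM + 0.5) of the list was 1.92 in vehicle 3 and highest in vehicle 4 at 4.33. Milk protein genes were at 741 CPM in 5-FU 4 and at 12677 to 21662 CPM in the other 9 libraries. Luminal epithelial genes had a median of -0.13, basal epithelial genes 0.45, the 5 tested epidermal genes -0.18 and the 5 tested blood genes -0.76, all with 0 at an unadjusted p under 0.05.

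No gene of the oxidative phosphorylation and circadian clock lists reached an unadjusted p of 0.05. The 29 nuclear genes of oxidative phosphorylation had a median of 0.057, the 13 mitochondrial ones 0.020 and the 17 circadian clock genes -0.27.

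5-FU was also given on top of KCL-HO-1i, and the comparison of KCL-HO-1i/5-FU with KCL-HO-1i alone, 5 libraries each, shares no library with the comparison above. In edgeR 0 genes passed an adjusted p of 0.05 there either, with a lowest adjusted p of 0.0870, but 1020 genes (7.47%) were higher and 1288 (9.43%) lower at an unadjusted p under 0.05. DESeq2 called 379 of 13598 genes (2.79%) at an adjusted p under 0.05 and limma-voom 21. A log2 fold change below 0 was found in 48.7% of genes. Of the 226 genes higher at an unadjusted p under 0.05 against vehicle, 154 (68.1%) were also above 0 on KCL-HO-1i, and of the 306 lower genes 158 (51.6%) were below 0, where over all genes the same direction was found in 53.8%. Of the 43 genes higher without overlap 27 kept their direction on KCL-HO-1i and of the 50 lower ones 24 did.

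p53 targets and proliferation genes had larger fitted differences on this background. On KCL-HO-1i, 16 of 36 p53 targets were higher and 0 lower at an unadjusted p under 0.05, with a median of 0.38, and Cdkn1a differed by 2.05 ± 0.45 (SE, unadjusted p = 0.000108), with an adjusted p of 0.102 in edgeR. Without KCL-HO-1i the mean level of Cdkn1a was 104 ± 30.7 CPM for vehicle and 128 ± 124 CPM for 5-FU, and with it 52.9 ± 12.2 CPM without and 219.6 ± 29.0 CPM with 5-FU (SD, n = 5). The interaction term, which tests the difference between the effects on both backgrounds, gave an unadjusted p of 0.00908 for Cdkn1a and 0.00509 for Mdm2, and 0 genes passed an adjusted p of 0.05 in edgeR (lowest adjusted p 0.420), with 1166 (8.53%) at an unadjusted p under 0.05. All 38 replication genes were below 0 on KCL-HO-1i with 21 at an unadjusted p under 0.05, and all 34 mitosis genes were below 0 with 27, against 0 in both lists relative to vehicle. The interaction had an unadjusted p under 0.05 in 9 of 36 p53 targets, 4 of 38 replication genes and 2 of 34 mitosis genes, beside 8.53% over all genes. For the replication and mitosis lists these counts were near that share.

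Cholesterol genes were below 0 on both backgrounds. On KCL-HO-1i the median was -0.64, all 17 genes were below 0, and 0 were higher and 12 lower at an unadjusted p under 0.05. Cyp51 differed by -0.64 ± 0.26 (SE, unadjusted p = 0.0227) there and Sc5d by -0.32 ± 0.15 (SE, unadjusted p = 0.0484), close to their values against vehicle, and the interaction had an unadjusted p of 0.938 and 0.823. Over the list the interaction had an unadjusted p under 0.05 in 2 of the 17 genes, beside 8.53% over all genes. Idi1, isopentenyl diphosphate isomerase, differed by -1.41 ± 0.32 (SE, unadjusted p = 0.000134) on KCL-HO-1i, with an adjusted p of 0.102 in edgeR. Against vehicle it differed by -0.43 ± 0.31 (SE, unadjusted p = 0.172). In the average over both backgrounds, 760 genes (5.56%) were higher and 874 (6.4%) lower at an unadjusted p under 0.05, 14 of them from the 17 cholesterol genes, and edgeR called 0 at an adjusted p under 0.05 (lowest 0.326) where DESeq2 called 16 (0.118%). Among these 16 were Idi1, Ddx5, Pik3ap1 and Tfrc, the transferrin receptor. The 16 also held Csrp3 and Myo18b, whose edgeR differences were above 0 against vehicle (3.41 and 2.00) and below 0 on KCL-HO-1i (-9.41 and -9.35). Tfrc was at 106, 151, 433, 127 and 169 CPM in vehicle 1 to 5 and 162, 157, 96.6, 93.3 and 63.7 CPM in 5-FU 1 to 5, highest in vehicle 3 and lowest in 5-FU 5 (log2 fold change -0.78 ± 0.33 (SE), unadjusted p = 0.0273), and it differed by -1.36 ± 0.34 (SE, unadjusted p = 0.000450) on KCL-HO-1i, with an adjusted p of 0.108 in edgeR.

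Immune, hypoxia and muscle lists took other values on KCL-HO-1i. The medians there were 0.051 for T cells and cytotoxic cells, 0.16 for macrophages, -0.057 for fibroblasts, -0.0079 for endothelium and -0.0013 for hypoxia, with 0 hypoxia genes at an unadjusted p under 0.05. Gzmb differed by 0.30 ± 0.54 (SE, unadjusted p = 0.587) and Ncr1 by -0.83 ± 0.84 (SE, unadjusted p = 0.328), with interaction p-values, unadjusted, of 0.105 and 0.0204. Skeletal muscle genes had a median of -6.30 on KCL-HO-1i, opposite in sign to that against vehicle, with 15 of 16 lower at an unadjusted p under 0.05 and 15 of 16 at an unadjusted p under 0.05 in the interaction. Adipocyte genes had a median of -3.72, with 11 of 15 lower. The 29 nuclear oxidative phosphorylation genes had a median of -0.53 with 25 lower, and 22 had an unadjusted p under 0.05 in the interaction. In KCL-HO-1i 4, the muscle gene Acta1 was at 1498 CPM, the fat gene Cidea at 744 CPM and the oxidative gene Atp5b at 3257 CPM. In the other KCL-HO-1i libraries they ranged over 4.16 to 520, 2.98 to 27.6 and 1046 to 1337 CPM. In KCL-HO-1i/5-FU they ranged over 0.313 to 17.7, 1.89 to 5.25 and 768 to 1105 CPM. Muscle, fat and oxidative genes had medians below 0 in that comparison, and the part of neighbouring tissue in it was not tested.

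**Figure D5:**
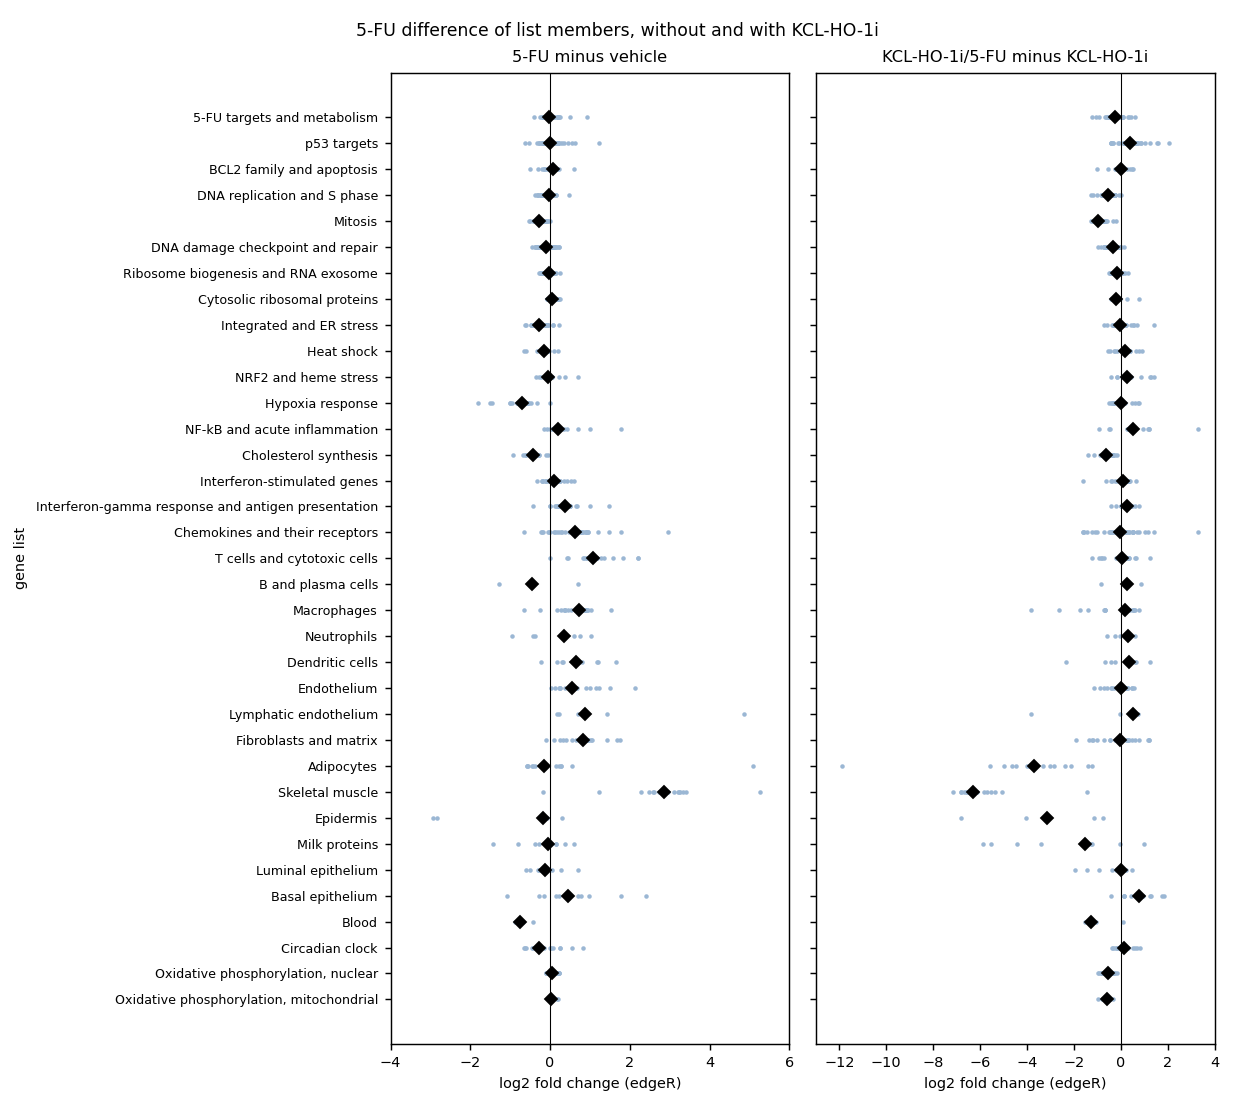
Log2 fold changes of the members (dots) and medians (diamonds) of the gene lists for 5-FU against vehicle on the left and 5-FU on KCL-HO-1i on the right, with x axes of different range, and Ccl21a left out as a dot because vehicle had 0 reads. Cholesterol medians lie left of 0 in both panels (-0.43 and -0.64), and the skeletal muscle median is 2.85 on the left and -6.30 on the right.

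Relative to gemcitabine 5-FU differed in 0 genes at an adjusted p under 0.05 in edgeR (lowest 0.752) and in 767 (5.61%) at an unadjusted p under 0.05. These values use the same 5-FU libraries as the comparison with vehicle and are given beside it only. Gzmb differed from gemcitabine by 1.43 ± 0.55 (SE, unadjusted p = 0.0150) and from vehicle by 1.59 (unadjusted p = 0.00791), Bid by -0.71 ± 0.21 (SE, unadjusted p = 0.00202) and -0.50 (unadjusted p = 0.0242), and Dpyd by 1.87 ± 0.71 (SE, unadjusted p = 0.0138) and 0.93 (unadjusted p = 0.188). Dpyd was at 71.7 CPM in 5-FU 4 and at 6.98 to 11.0 CPM in the other 5-FU libraries. Without 5-FU 4 its difference from vehicle was -0.34. Tyms differed from gemcitabine by -0.47 ± 0.24 (SE, unadjusted p = 0.0594). The mean level of Gzmb was 2.63 ± 1.63 CPM for gemcitabine, beside 7.11 ± 4.83 CPM for 5-FU and 2.36 ± 0.983 CPM for vehicle (SD, n = 5).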

How the data were processed

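Total RNA of mammary tumours (RNeasy extraction, NEBNext Ultra II Directional libraries) was sequenced. Per the labels and the study's methods, the authors checked reads with FastQC 0.11.9, aligned them to mm10 with STAR 2.7.9a, quantified with Salmon 1.9.0 and summed transcripts to genes with tximport. The values the authors deposited are expected counts, estimated numbers of reads for each gene, although the methods speak of TPM: of all values 37.99% are not whole, and library totals differ. They were rounded to whole numbers.

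Of 21841 genes, 3284 had no reads in any library after rounding and 13663 passed edgeR's filter (minimum count 10); the rest held 0.0564% of counts. edgeR 4.0.16 in R 4.3.3 (TMM, robust quasi-likelihood fit) modelled 6 group means over all 30 libraries with 24 residual degrees of freedom, so that the groups shared 1 estimate of spread (biological coefficient of variation 0.401). Tests were two-sided with Benjamini-Hochberg adjustment at 0.05. CPM used the effective library size, and 3 reads equalled 0.218 to 0.282 CPM per library. Floors and intervals cover counting error only. Exact permutation tests ran over all 252 assignments of 5 against 5.

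Named genes were up to 12 per direction with the smallest p among genes without overlap and a mean of at least 1 CPM, genes called by DESeq2 (0 in this comparison), 19 genes taken whatever their values, up to 3 members per list with the smallest p, and up to 5 per direction in the average over both backgrounds; others were chosen after their values were seen. The members and the 35 gene lists were chosen with earlier results of these data known. Some members of the cholesterol list count in its totals and are not reported singly here. RefSeq symbols matched 20992 genes, and coordinates are gene spans in GRCm38.p6. A chi-square over 20 pairs within groups tested whether any library was a duplicate (lowest value per degree of freedom 17.4). Same-numbered libraries did not pair, with correlations of their deviations from -0.21 to 0.058 over 5 pairs of vehicle and 5-FU, and from -0.045 to 0.41 over 5 pairs of KCL-HO-1i and KCL-HO-1i/5-FU, where numbers 3 and 5 were over 0.1 and also share a mouse code. The pipeline was tested on simulated data. Alternatives were RLE normalisation, DESeq2 1.42.0, limma-voom (limma 3.58.1) with sample weights, no filter, only genes with a mean count of 50 or more, a block for the replicate number, a covariate for the mouse code, an adjusted p for the study's limits, only the 10 libraries, and each library left out. After the data were seen, DESeq2 without the filter and the removal of both vehicle 3 and 5-FU 4 were added. Figures were drawn with matplotlib 3.10.9.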

Additional observations from a re-analysis of the deposited data

Results flagged for a closer look

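Among 308 groups of 5 values tested for a value far from the others, 36 were marked. The limit marks about 1 in 20 among independent normal values. Many genes here were chosen by their values and vary together, so that rate does not apply to the 36. A single value above 0 among zeros, as for Mmrn1 (2 reads in vehicle), is always marked. Of these, 13 concerned vehicle 3 and 13 concerned 5-FU 4, the pair of libraries that stood apart. No gene was marked for a difference between the effects of 5-FU on both backgrounds.

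Vehicle 3 was low for Aif1 (1.32 CPM), Yju2 (18.1 CPM) and the neutrophil granule gene Ltf (551 CPM). It was high for the hypoxia genes Ero1l (366 CPM) and Vegfa (272 CPM), for Plk3 (23.2 CPM), Pus7 (66.2 CPM) and Sdc1 (313 CPM), for Padi4 (32.1 CPM), the lipid desaturase gene Scd1 (3770 CPM), the epidermal gene Sbsn (79.3 CPM) and the milk protein gene Wap (661 CPM), and it alone of vehicle had reads of Mmrn1 (0.176 CPM).

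5-FU 4 was high for Hoxb6 (29.2 CPM), Gdf10 (9.29 CPM), Dpyd (71.7 CPM), the natural killer receptor Ncr1 (1.38 CPM), the ribosomal protein genes Rpl9 (2080 CPM) and Rplp1 (2710 CPM), Ndufb3 (114 CPM), mt-Co3 (2070 CPM) and Mup5 (1040 CPM), a major urinary protein gene of a family whose copies share reads. It was low for Fetub (0.163 CPM), the heat shock genes Hspa1b (17.1 CPM) and Hspa1a (7.98 CPM), and Scd1 (295 CPM).

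The remaining marks were single genes. Vehicle 1 was high for the muscle genes Myh1 (1.22 CPM) and Pvalb (1.88 CPM), for Ccl24 (0.376 CPM) and for Jchain (2.07 CPM), the joining chain of secreted antibodies. Vehicle 5 was low for the globin gene Hbb-bt (3.05 CPM) and for the clock gene Cry1 (24.2 CPM). 5-FU 5 was low for Mki67 (46.2 CPM), had 0 CPM of Cd22 and was high for Ucp1 (12.2 CPM), the uncoupling protein of brown fat, and 5-FU 1 was high for Ccl24 (2.84 CPM).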

How the results depend on the processing

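For 5-FU against vehicle, 0 genes passed an adjusted p of 0.05 under every alternative except DESeq2 without the filter, which called 9, most of them muscle genes or genes with reads in few libraries. None of the 152 named genes passed under any alternative that used the filter. The count at an unadjusted p under 0.05 (532) was 994 with limma-voom, 291 with the mouse code, 239 without vehicle 3 and 5-FU 4, and 270 to 841 with 1 library left out. The counts under the study's limits (163 higher, 64 lower) were 361 and 107 with limma-voom, 345 and 113 with no filter, 89 and 31 at a mean of at least 50 counts (fewer genes tested, with 25 rather than 50 lower without overlap), 95 and 196 with the mouse code, 93 and 32 without vehicle 3 and 5-FU 4, 0 and 0 with an adjusted p, 263 higher with only the 10 libraries, and 108 to 214 higher and 40 to 96 lower with 1 library left out. The vehicle mice share a code with other groups only through code 84, so that covariate reaches this comparison through other groups.

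On KCL-HO-1i, the 0 called genes became 379 with DESeq2, 406 with DESeq2 without the filter, 21 with limma-voom, and 0 to 15 with 1 library left out, and the unadjusted count (2308) was 1463 with the mouse code. For the difference of both effects, 0 became 22 with DESeq2 and 41 without its filter, and the unadjusted count (1166) was 1944 with limma-voom and 289 with the mouse code. For the average, 0 became 16 and 25 with DESeq2, 1 with the mouse code and 0 to 1 with 1 library left out, and the unadjusted count (1634) was 528 with the mouse code. Against gemcitabine, 0 became 2 with DESeq2 without the filter and 3 with the mouse code, and the unadjusted count (767) was 496 with limma-voom, 504 with the mouse code and 401 to 1309 with 1 library left out. The cause of these changes was not tested.

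The replicate block, for numbers that did not pair the samples, gave 0 called genes in 5-FU against vehicle, 441 at an unadjusted p under 0.05, and 108 higher and 45 lower under the study's limits; it changed no call. Of the recomputed counts, 222 stayed within 1.5 times the reported count and 46 did not. Of 35 list medians, 14 changed sign with 1 library left out, most of them near 0, and 5 recomputed medians moved by more than the spread between libraries: 3 of B and plasma cells (0.60 without vehicle 1, -0.095 without vehicle 3, -0.016 without vehicle 3 and 5-FU 4), skeletal muscle (4.90 without vehicle 1) and adipocytes (1.38 without vehicle 4).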

Other observations

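DESeq2 run on every gene with at least 1 read, an alternative added after the data were seen, called 9 genes in 5-FU against vehicle at an adjusted p under 0.05. Ccl21a and Hoxb6 were among them, and the other 7 did not pass edgeR's filter. Of those, Ckmt2, Dhrs7c, Myf6, Smtnl1 and Xirp1 are genes of striated muscle, and the remaining 2 were 3425401B19Rik and Lypd5.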
